A study of Mus musculus with 20 samples.

Results

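The 42 genes described here encode machinery that secreted and membrane proteins use to enter the endoplasmic reticulum (ER), fold there and leave it in vesicles. They are the rows of the deposited gene counts whose gene name is on a list of members, and the list was drawn up with earlier results of these data known. All 42 were found among the 24885 genes of the count table, and all 42 were among the 18918 genes that passed the filter on low counts and were tested. RNA was sequenced from mouse plantaris tendons to follow how tendon responds to a growth stimulus, and how that response differs when the IGF1 receptor gene is targeted in tendon cells. KO day 7 and KO day 14 tendons came from ScxCreERT2+/+ IGF1Rflox/flox mice that received tamoxifen and the growth stimulus. WT day 7 and WT day 14 tendons came from ScxCreERT2-/- IGF1Rflox/flox mice that also received both. WT day 0 tendons came from ScxCreERT2-/- IGF1Rflox/flox mice without tamoxifen and without a growth stimulus. Each of these 5 groups has 4 libraries, and every group carries the floxed Igf1r alleles. CreERT2 is a recombinase that acts after tamoxifen, and its Scx label ties it to tenocytes, the tendon fibroblasts in which the transcription factor Scx is active. Tamoxifen and the growth stimulus cannot be told apart in any comparison with day 0, and a KO group at day 0 was not analysed here. KO and WT differ in the ScxCreERT2 genotype, so targeting of Igf1r cannot be told apart from the presence of that allele. The labels give no age. They also do not state whether the replicates come from different animals, so the spread behind each p-value is that of the libraries and may be technical.

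Proteins bound for the outside of the cell carry a signal sequence that the signal recognition particle hands to a receptor on the ER, from which they thread through the Sec61 channel. Inside, chaperones and disulfide isomerases fold them and sugars are attached, and COPII vesicles carry the folded cargo to the Golgi while COPI vesicles and the KDEL receptors bring escaped ER residents back. Tenocytes are known for secreting large amounts of collagen, whose stiff trimers need a dedicated export receptor. Transcription factors that respond to the load of the ER, among them Xbp1 and the Creb3-like factors, raise the genes of this machinery in other secretory tissues.

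The libraries held 32.3 to 63.5 M counts assigned to genes. Values are CPM, counts scaled to a common library size with TMM factors, and a gene was called at an edgeR Benjamini-Hochberg adjusted p below 0.05. Tenocyte markers were read in every library, and 10 of 10 were above 0 throughout. Igf1r was not lower in KO and did not check the labels. It averaged 51.3 ± 2.81 CPM in KO and 49.1 ± 2.17 CPM in WT at day 7. At day 14 it averaged 53.1 ± 5.0 CPM in KO and 45.3 ± 3.63 CPM in WT (SD at both days, n = 4 each). A count over the whole gene includes exons outside the floxed part, and why Igf1r was not lower in KO was not tested. Scx averaged 736 ± 281 CPM in KO and 50.5 ± 5.52 CPM in WT at day 7, and 1249 ± 513 CPM in KO and 114 ± 30.7 CPM in WT at day 14. One library, WT day 14 replicate 4, stood apart from its group: it was the lowest of the 4 for 31 of the 42 secretory genes, and it had the highest summed tenocyte markers (148905 CPM, against 65934, 80962 and 92949 CPM in its mates) and the highest share of muscle fibre counts (2.10%, against 0.276% to 1.44%). KO day 14 replicate 1 was the lowest of its group for 32 of the 42. Results that rest on WT day 14 replicate 4 are given with and without it.

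The genes were strongly expressed. The median of their mean levels was 181 CPM, against 11.8 CPM over all genes tested. Per kb of exon, Calr, a lectin chaperone that also binds calcium, had the highest level among them in every group, at 138 CPM per kb at WT day 0, 279 at WT day 7 and 253 at WT day 14. Srp54a had the lowest, at 0.695 CPM per kb at WT day 0. Counts of Srp54a are uncertain, because mouse has close copies of this gene. The counts of Spcs1, Ssr2, Sec62 and Hsp90b1 share 16.3%, 12.8%, 11.7% and 10.3% of their exon bases with a gene on the opposite strand, and no strand setting is stated. In bulk tissue, fewer cells of a type and less RNA per cell cannot be told apart.

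Promoter sequences were searched for 3 elements known from the mammalian ER stress response, because the folding genes are textbook carriers of them. The searched letters were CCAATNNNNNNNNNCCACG for the ER stress response element (ERSE), ATTGGNCCACG for ERSE-II and TGACGTGG for the core of the unfolded protein response element (UPRE), on both strands, from 250 bases before to 50 after each gene's start. A RefSeq window of build GRCm38.p6 was found for 37 of the 42 genes, and Sec61a1, Ssr2, Spcs3, Creb3l1 and Kdelr2 have none in the table used. ERSE letters were in 5 of the 37 windows (13.5%), against 0.137% of the windows of 27025 genes. ERSE-II letters were in 1 (2.70%, against 0.0444%), and the UPRE core was in 4 (10.8%, against 0.714%). No gene carried an ERSE or ERSE-II together with a UPRE core. The ERSE and ERSE-II letters lay in 6 of the 8 folding genes, all but Pdia3 and Pdia4, and in no gene of another role. The UPRE core lay in the export genes Sec23a and Sec24d and in the COPI and retrieval genes Copb1 and Kdelr3. A match describes letters and not a used site, and a window without a match says only that these letters are not in it.

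The 6 stretches with ERSE letters are printed to show how the element lies in the chaperone promoters. Each runs 5′ to 3′ on the gene's own strand, with the element in capitals and 20 bases on each side. Capitals that open with CGTGG hold the element on the other strand.
Hspa5, chr2:34772005-34772063, plus strand: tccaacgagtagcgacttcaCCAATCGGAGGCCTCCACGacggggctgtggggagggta
Hsp90b1, farther match, chr10:86705618-86705676, minus strand: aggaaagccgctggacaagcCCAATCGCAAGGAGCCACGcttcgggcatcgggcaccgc
Hsp90b1, nearer match, chr10:86705513-86705571, minus strand: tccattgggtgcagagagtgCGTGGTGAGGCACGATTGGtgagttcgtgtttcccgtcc
Calr, chr8:84847055-84847113, minus strand: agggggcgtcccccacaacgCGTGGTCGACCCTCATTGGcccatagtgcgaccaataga
Canx, chr11:50325780-50325838, minus strand: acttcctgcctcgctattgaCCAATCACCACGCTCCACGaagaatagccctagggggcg
Pdia6, chr12:17266471-17266529, plus strand: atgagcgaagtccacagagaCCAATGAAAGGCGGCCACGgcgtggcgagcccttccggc

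Distances here are from the RefSeq start that defines each window. In Hspa5 the element began 65 bases before that start, and in Hsp90b1 the elements began 212 and 107 bases before it. The distances were 162 bases in Calr, 145 in Canx and 98 in Pdia6. In Dnajb11 the ERSE-II began 7 bases after the start. The GENCODE gene models, whose coordinates are given with the genes, place some starts elsewhere: by them the Hspa5 element began 55 bases after the start, and the elements began 147 and 42 bases before it in Hsp90b1 and 54 in Pdia6. The UPRE core is shown for the vesicle genes in which it lies before the RefSeq start, in the same form, with capitals CCACGTCA holding the core on the other strand.
Sec24d, chr3:123267450-123267497, plus strand: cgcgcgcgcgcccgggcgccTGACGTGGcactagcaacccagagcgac
Copb1, chr7:114254681-114254728, minus strand: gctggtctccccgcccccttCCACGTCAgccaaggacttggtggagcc
Kdelr3, chr15:79516358-79516405, plus strand: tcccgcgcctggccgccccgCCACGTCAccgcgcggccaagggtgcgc

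The core began 26 bases before the RefSeq start in Sec24d, 28 in Copb1 and 30 in Kdelr3, and 6 bases after it in Sec23a. By the GENCODE gene models it began 15 bases after the start in Sec24d, 3 after it in Copb1 and 33 before it in Kdelr3.

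Growth stimulus and tamoxifen for 7 days were accompanied by higher levels of most of these genes in WT tendon. Of the 42, 34 rose and none fell at WT day 7 against WT day 0, where 32.3% of all genes tested rose and 31.8% fell. The median difference was 0.78 on the log2 scale, against 0.02 over all genes tested, and 16 genes rose at least 2-fold. At WT day 14 against WT day 0, 34 rose and none fell, where 28.0% of all genes rose and 26.2% fell. The median difference was then 0.66, against 0.02 over all genes, and 8 genes rose at least 2-fold. The levels of WT day 7 and WT day 0 did not overlap for 33 genes, and those of WT day 14 and WT day 0 did not overlap for 30, all of them higher after the stimulus. Overlap was not counted over all genes tested, so these 2 counts have no background to be read against. Both comparisons use the same WT day 0 libraries. Leaving out each library in turn gave 31 to 36 genes called at day 7 and 32 to 36 at day 14. In all 20 of these refits 31 of the 34 calls held at day 7, the exceptions being Sec61g (lost without WT day 0 replicate 2 or 3 or WT day 7 replicate 1 or 2), Spcs2 (lost without WT day 0 replicate 3 or WT day 7 replicate 2 or 3) and Spcs3 (lost without WT day 7 replicate 2), with adjusted p of up to 0.0736, 0.0833 and 0.0594. At day 14, 32 of the 34 calls held, the exceptions being Rpn2 (lost without WT day 0 replicate 3 or 4 or WT day 14 replicate 2 or 3) and Xbp1, with adjusted p of up to 0.116 and 0.139. With the muscle fibre markers as a covariate, 24 of the 34 calls held at day 7, those of Sec61g, Ssr3, Spcs2, Spcs3, Rpn2, Hspa5, Dnajb11, Canx, Sar1a and Mia3 being lost. At day 14 the covariate ended the calls of Rpn2, Creb3l2 and Xbp1, and so did a fit to the compared groups alone. Muscle fibre markers took 2.72% to 6.29% of the counts at WT day 0, 0.0235% to 0.189% at WT day 7 and 0.276% to 2.10% at WT day 14.

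**Figure D1:**
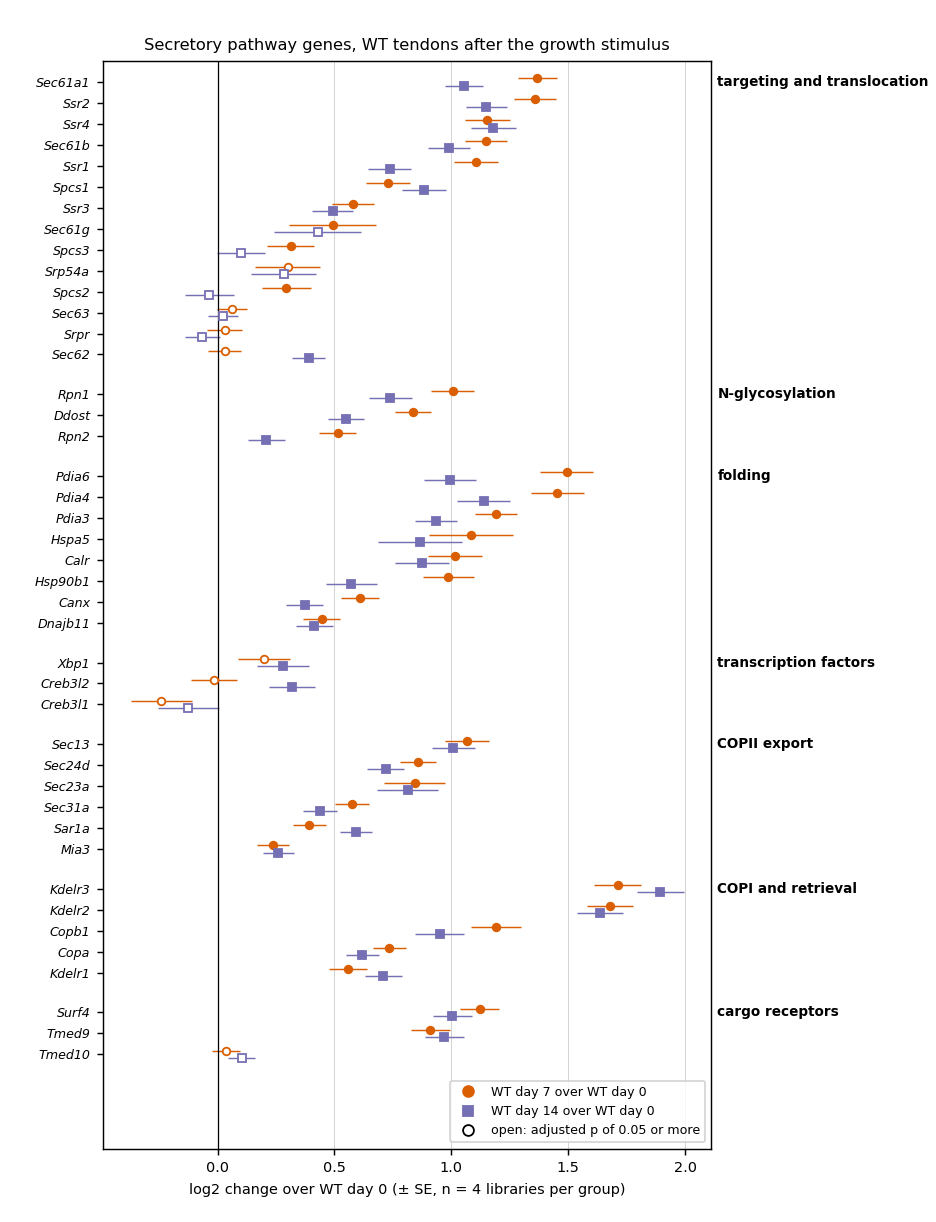
Log2 changes of the 42 genes (x axis) in WT day 7 (circles) and WT day 14 (squares) over WT day 0, by gene and role (y axis), with bars for the SE of 4 libraries per group; open symbols did not pass the test. Filled symbols lie right of 0 for 34 genes at each day, with Kdelr3 and Kdelr2 farthest right and the transcription factors near 0.

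The KDEL receptors, which return ER residents that escaped to the Golgi, separated from each other. Kdelr3 (ENSMUSG00000010830, GRCm38 chr15:79516411-79527739, plus strand) had 61.8, 65.7, 57.8 and 52.3 CPM in the WT day 0 libraries, 211, 197, 188 and 182 CPM in those of WT day 7, and 227, 248, 229 and 179 CPM in those of WT day 14. It rose by 1.71 ± 0.10 on the log2 scale at day 7 (SE, n = 4 per group; edgeR adjusted p = 5.62e-11) and by 1.89 ± 0.10 at day 14 (adjusted p = 2.62e-11). Both days stood far above day 0 without overlap. Kdelr2 (ENSMUSG00000079111, chr5:143403838-143421901, plus strand) had 106, 111, 90.8 and 96.7 CPM at WT day 0, 339, 337, 309 and 308 CPM at WT day 7, and 315, 365, 319 and 256 CPM at WT day 14. Its increases were 1.68 ± 0.10 at day 7 (adjusted p = 5.43e-11) and 1.64 ± 0.10 at day 14 (adjusted p = 1.40e-10), again without overlap. Kdelr1 (ENSMUSG00000002778, chr7:45872772-45883732, plus strand) had 102, 108, 100 and 101 CPM at WT day 0, 142, 151, 158 and 154 CPM at WT day 7, and 140, 163, 181 and 189 CPM at WT day 14. It rose by 0.56 ± 0.08 at day 7 (adjusted p = 5.77e-06) and by 0.71 ± 0.08 at day 14 (adjusted p = 5.40e-07), also without overlap. Per kb of exon, the mean level of Kdelr2 was 1.01 times that of Kdelr1 at WT day 0, 2.19 times at WT day 7 and 1.91 times at WT day 14. For Kdelr3 the same ratio was 0.768, 1.71 and 1.74. The ratios compare levels within a group and were not tested. Copa and Copb1, subunits of the COPI coat, also rose at both days, Copb1 by 1.19 ± 0.11 and 0.95 ± 0.11 and Copa by 0.74 ± 0.07 and 0.62 ± 0.07 at day 7 and day 14.

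All 8 folding genes rose at both days, with a median difference of 1.05 on the log2 scale at day 7 and 0.87 at day 14. Hspa5 (ENSMUSG00000026864, chr2:34771970-34777547, plus strand), the chaperone BiP that holds nascent chains and senses ER load, had 458, 416, 401 and 416 CPM at WT day 0, 768, 1046, 949 and 820 CPM at WT day 7, and 920, 886, 869 and 405 CPM at WT day 14. All 4 WT day 7 libraries and the first 3 of WT day 14 stood above every day 0 library, while WT day 14 replicate 4 lay within the day 0 range. Hspa5 rose by 1.08 ± 0.18 at day 7 (adjusted p = 2.96e-05) and by 0.86 ± 0.18 at day 14 (adjusted p = 0.000438). With the muscle markers as a covariate its day 7 difference was 0.58 (adjusted p = 0.192). Hsp90b1, the ER form of the chaperone HSP90, had 293, 281, 243 and 252 CPM at WT day 0, 474, 582, 580 and 484 CPM at WT day 7, and 408, 460, 393 and 327 CPM at WT day 14. It rose by 0.99 ± 0.11 at day 7 (adjusted p = 2.13e-07) and 0.57 ± 0.11 at day 14 (adjusted p = 0.000199), with no overlap at either day. The disulfide isomerases Pdia6 and Pdia4 had the largest increases of the role at day 7, 1.49 ± 0.11 and 1.45 ± 0.11. Their increases at day 14 were 0.99 ± 0.11 and 1.14 ± 0.11. Pdia3, which works on glycoproteins held by Calr and Canx, rose by 1.19 ± 0.09 and 0.93 ± 0.09, and Calr by 1.01 ± 0.12 and 0.87 ± 0.12. The membrane lectin Canx rose by 0.61 ± 0.08 and 0.37 ± 0.08, and Dnajb11, a co-chaperone of BiP, by 0.45 ± 0.08 and 0.41 ± 0.08. Their day 7 differences with the muscle covariate were 0.37 (adjusted p = 0.0557) for Canx and 0.15 (adjusted p = 0.425) for Dnajb11.

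Of the 14 targeting and translocation genes, 10 rose at WT day 7 and 8 at WT day 14. Sec61a1 (ENSMUSG00000030082), the pore of the channel, had 165, 173, 151 and 157 CPM at WT day 0, 382, 452, 413 and 417 CPM at WT day 7, and 298, 372, 347 and 324 CPM at WT day 14. It rose by 1.37 ± 0.08 at day 7 (adjusted p = 9.52e-11) and 1.05 ± 0.08 at day 14 (adjusted p = 5.17e-09), with no overlap. Sec61b, a small subunit of the same channel, had 25.8, 27.1, 23.8 and 23.9 CPM at WT day 0, 53.9, 60.9, 58.7 and 49.4 CPM at WT day 7, and 55.2, 50.7, 49.4 and 44.8 CPM at WT day 14, and rose by 1.15 ± 0.09 and 0.99 ± 0.09. The groups of Sec61b after the stimulus stood above all day 0 libraries. The other small subunit, Sec61g, was read at 3.52, 2.70, 2.71 and 3.23 CPM at WT day 0, 4.44, 4.49, 4.14 and 3.97 CPM at WT day 7, and 4.73, 4.63, 4.15 and 2.77 CPM at WT day 14. It rose by 0.49 ± 0.19 at day 7 (adjusted p = 0.0262) and its difference at day 14 was 0.43 ± 0.19 (adjusted p = 0.0594), where WT day 14 replicate 4 lay within the day 0 range. Without that library the day 14 difference was 0.58 with adjusted p = 0.0094, and over all 29 alternatives its adjusted p ran from 0.0094 to 0.17. All 4 subunits of the translocon-associated complex rose at both days: Ssr2 by 1.36 ± 0.09 and 1.15 ± 0.09, Ssr4 by 1.15 ± 0.10 and 1.18 ± 0.10, Ssr1 by 1.10 ± 0.09 and 0.74 ± 0.09, and Ssr3 by 0.58 ± 0.09 and 0.49 ± 0.09. Signal peptidase subunits were less even: Spcs1 rose by 0.73 ± 0.09 and 0.88 ± 0.09, while Spcs2 and Spcs3 rose by 0.29 ± 0.10 and 0.31 ± 0.10 at day 7 and differed by -0.04 ± 0.10 and 0.10 ± 0.10 at day 14 (adjusted p = 0.796 and 0.426).

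Srp54a and Srpr, the genes among the 42 that bring ribosomes to the ER, were not called at either day. Srp54a, whose product binds signal sequences, had 3.82, 3.03, 4.60 and 3.35 CPM at WT day 0, 4.70, 4.71, 4.30 and 4.49 CPM at WT day 7, and 4.71, 5.39, 4.23 and 3.65 CPM at WT day 14. Its differences were 0.30 ± 0.14 (adjusted p = 0.0653) and 0.28 ± 0.14 (adjusted p = 0.0925), and without WT day 14 replicate 4 it passed at both days (0.30, adjusted p = 0.0483, and 0.37, adjusted p = 0.0303). Over the 29 alternatives its adjusted p ran from 0.014 to 0.589 at day 7 and from 0.0222 to 0.305 at day 14. Srpr, the receptor subunit that docks the particle, had 150, 139, 160 and 166 CPM at WT day 0, 141, 167, 160 and 160 CPM at WT day 7, and 136, 149, 154 and 150 CPM at WT day 14, in overlapping groups with differences of 0.03 ± 0.07 and -0.07 ± 0.07. Sec63, a channel partner that recruits BiP, differed by 0.06 ± 0.06 and 0.02 ± 0.06. Its partner Sec62 differed by 0.03 ± 0.07 at day 7 and rose by 0.39 ± 0.07 at day 14 (adjusted p = 0.000129).

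The 3 subunits among the 42 of the oligosaccharyltransferase, which attaches N-linked sugars, rose at both days. Rpn1 rose by 1.01 ± 0.09 and 0.74 ± 0.09, Ddost by 0.83 ± 0.08 and 0.55 ± 0.08, and Rpn2 by 0.51 ± 0.08 and 0.21 ± 0.08 at day 7 and day 14.

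All 6 COPII genes among the 42 rose at both days. Sec24d, the subunit that selects cargo, had 135, 143, 127 and 123 CPM at WT day 0, 222, 242, 246 and 245 CPM at WT day 7, and 202, 243, 227 and 195 CPM at WT day 14. It rose by 0.86 ± 0.08 (adjusted p = 1.54e-08) and 0.72 ± 0.08 (adjusted p = 3.01e-07), without overlap. Sec23a, its partner in the inner coat, had 103, 90.1, 95.7 and 103 CPM at WT day 0, 195, 184, 166 and 158 CPM at WT day 7, and 203, 214, 147 and 125 CPM at WT day 14. It rose by 0.84 ± 0.13 and 0.81 ± 0.13, and its WT day 14 libraries were widely spread but all above day 0. Sec31a of the outer coat had 282, 286, 254 and 270 CPM at WT day 0, 391, 409, 419 and 406 CPM at WT day 7, and 330, 382, 405 and 362 CPM at WT day 14, and rose by 0.57 ± 0.07 and 0.44 ± 0.07. Its outer coat partner Sec13 rose by 1.07 ± 0.09 and 1.01 ± 0.09, and Sar1a, the GTPase that starts coat assembly, by 0.39 ± 0.07 and 0.59 ± 0.07. Mia3, also called TANGO1, is the receptor that loads collagen at ER exit sites. It had 136, 123, 137 and 134 CPM at WT day 0, 143, 156, 165 and 161 CPM at WT day 7, and 139, 163, 169 and 164 CPM at WT day 14. Its increases of 0.24 ± 0.07 (adjusted p = 0.0043) and 0.26 ± 0.07 (adjusted p = 0.00282) were the smallest of these 6 COPII genes. The lowest Mia3 library after the stimulus stood only just above the highest of day 0.

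Of the cargo receptors among the 42, Surf4 and Tmed9 rose and Tmed10 was not called. Surf4, which exports soluble cargo, had 255, 264, 265 and 266 CPM at WT day 0, 512, 603, 578 and 589 CPM at WT day 7, and 458, 559, 563 and 524 CPM at WT day 14, and rose by 1.12 ± 0.08 and 1.0 ± 0.08. Tmed9, of the p24 family of vesicle proteins, had 136, 144, 125 and 129 CPM at WT day 0, 248, 273, 242 and 241 CPM at WT day 7, and 258, 278, 267 and 243 CPM at WT day 14, and rose by 0.91 ± 0.08 and 0.97 ± 0.08. For both genes the day 0 libraries lay apart and lower. Tmed10, of the same family, had 154, 159, 150 and 149 CPM at WT day 0, 145, 163, 153 and 166 CPM at WT day 7, and 159, 169, 168 and 161 CPM at WT day 14. Its differences were 0.04 ± 0.06 (adjusted p = 0.607) and 0.10 ± 0.06 (adjusted p = 0.148).

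None of the 3 transcription factors was called at WT day 7, and Xbp1 and Creb3l2 rose at WT day 14. Xbp1 (ENSMUSG00000020484, chr11:5520659-5525893, plus strand), whose mRNA is spliced by an ER sensor, had 201, 210, 186 and 183 CPM at WT day 0, 207, 242, 217 and 230 CPM at WT day 7, and 248, 260, 273 and 168 CPM at WT day 14. WT day 14 replicate 4 was below every day 0 library and its 3 mates above all of them. The differences were 0.20 ± 0.11 at day 7 (adjusted p = 0.124) and 0.28 ± 0.11 at day 14 (adjusted p = 0.0380). Without WT day 14 replicate 4 the day 7 difference, unchanged at 0.20, had adjusted p = 0.0200, and the day 14 difference was 0.42 with adjusted p = 0.000162. The day 14 call was lost without WT day 14 replicate 1, 2 or 3 (adjusted p = 0.0767, 0.111 and 0.139) and without WT day 0 replicate 1, 3 or 4 (adjusted p = 0.053, 0.0893 and 0.0991). Over the 29 alternatives the adjusted p of Xbp1 ran from 0.02 to 0.569 at day 7 and from 0.000162 to 0.434 at day 14. A gene count does not show the spliced form. Creb3l2 (ENSMUSG00000038648, chr6:37327255-37442146, minus strand), known in cartilage as an activator of Sec23a, had 127, 137, 128 and 126 CPM at WT day 0, 125, 136, 121 and 130 CPM at WT day 7, and 119, 173, 181 and 173 CPM at WT day 14. It differed by -0.02 ± 0.10 at day 7 and rose by 0.32 ± 0.10 at day 14 (adjusted p = 0.0105), where 3 libraries were high and WT day 14 replicate 1 was low. The day 14 call was lost in a fit to the compared groups alone (0.31, adjusted p = 0.0524) and with the muscle covariate (0.24, adjusted p = 0.106), and without WT day 14 replicate 1 the adjusted p was 3.07e-05. Creb3l1 (ENSMUSG00000027230, chr2:91982328-92024502, minus strand), known in bone as an activator of Col1a1, had 99.6, 115, 121 and 122 CPM at WT day 0, 73.8, 91.9, 112 and 111 CPM at WT day 7, and 85.4, 103, 117 and 114 CPM at WT day 14. Its differences were -0.24 ± 0.13 (adjusted p = 0.117) and -0.12 ± 0.13 (adjusted p = 0.442), and the groups overlapped.

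**Figure D2:**
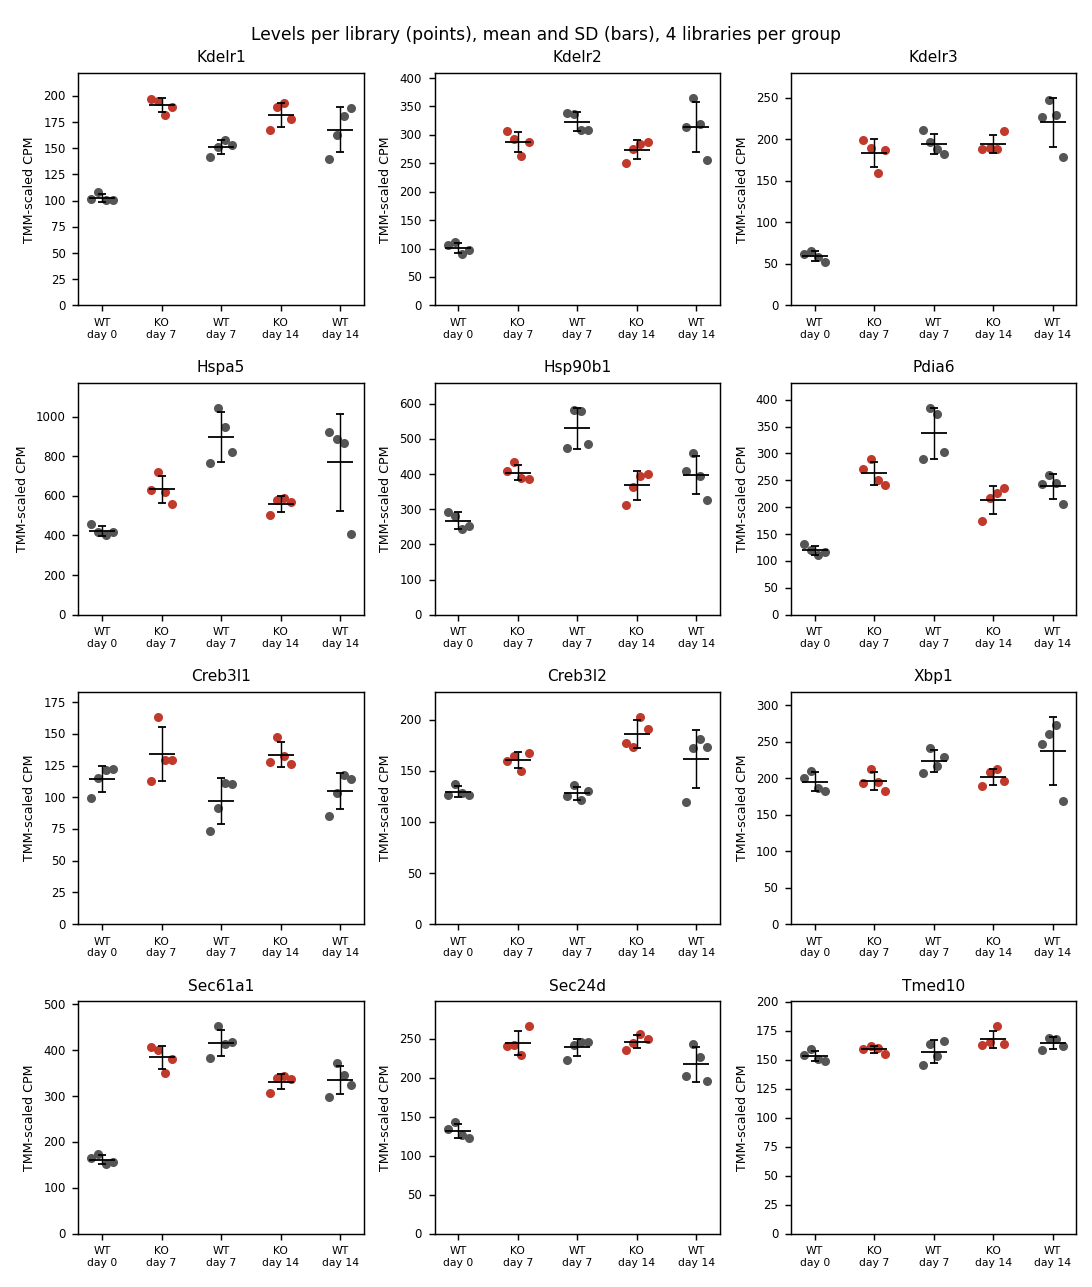
TMM-scaled CPM (y axis) of 12 genes in every library (points), by group (x axis: WT day 0, KO day 7, WT day 7, KO day 14, WT day 14), with the mean and SD of 4 libraries as bars. Kdelr2 and Kdelr3 lie far above WT day 0 in all later groups, Hspa5 of WT day 14 has 1 library at 405 CPM, and Tmed10 lies between 145 and 179 CPM in all 20 libraries.

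Genes set apart by their promoter letters can be read side by side. The 6 carriers of ERSE or ERSE-II letters all rose at both days, with a median difference of 1.0 at WT day 7 and 0.72 at WT day 14 on the log2 scale. The 4 carriers of the UPRE core all rose too, with medians of 1.02 and 0.88. Of the 27 genes whose window held none of these letters, 20 rose at day 7 and 21 at day 14, with medians of 0.57 and 0.55. Of the 5 genes without a window, 4 rose at day 7 and 3 at day 14, with medians of 1.36 and 1.05. The carriers of ERSE or ERSE-II letters are all folding genes, and the folding genes without a match, Pdia3 and Pdia4, rose by 1.19 and 1.45 at day 7, above that median of the carriers.

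Between day 7 and day 14 of the stimulus, some genes of the machinery fell in WT tendon, and markers of other cells moved in the same interval. At WT day 14 against WT day 7, 3 of the 42 genes rose and 11 fell, where 16.0% of all genes tested rose and 14.3% fell. The median difference was -0.11 on the log2 scale, against 0.02 over all genes. In the same comparison 14 of 16 muscle fibre markers rose and none fell (median 3.38), 11 of 12 macrophage markers fell and none rose (median -0.86), and all 10 tenocyte markers rose (median 0.88). With the muscle markers as a covariate none of the 11 genes that fell was called, with a difference of -0.31 for Pdia6 (adjusted p = 0.151), -0.20 for Hsp90b1 (adjusted p = 0.363), -0.30 for Ssr1 (adjusted p = 0.121) and -0.19 for Sec61a1 (adjusted p = 0.253), and Sec62 and Creb3l2 were the calls that held. All 3 oligosaccharyltransferase genes fell, as did 5 of the 8 folding genes and 3 translocation genes. Pdia6 fell by 0.50 ± 0.11 (adjusted p = 0.00194), Hsp90b1 by 0.42 ± 0.11 (adjusted p = 0.00709), Ssr1 by 0.37 ± 0.09 (adjusted p = 0.00549) and Sec61a1 by 0.31 ± 0.08 (adjusted p = 0.00688). Pdia4, Pdia3, Canx, Spcs2, Rpn2, Ddost and Rpn1 fell by 0.24 to 0.33. The levels did not overlap for 9 genes that were lower and for 1 that was higher, and the same was not counted over all genes. Sec62 rose by 0.36 ± 0.07 (adjusted p = 0.000896): its libraries had 188, 179, 165 and 151 CPM at WT day 14, against 142, 136, 128 and 128 CPM at WT day 7, with no overlap. Creb3l2 rose by 0.33 ± 0.10 (adjusted p = 0.0145) and Sar1a by 0.20 ± 0.07 (adjusted p = 0.0359). Hspa5 differed by -0.22 ± 0.18 (adjusted p = 0.384). Without WT day 14 replicate 4, 5 genes rose and 6 fell, the calls of Spcs2, Rpn1, Pdia3, Pdia4 and Canx being lost and Xbp1 (0.22, adjusted p = 0.0424) and Kdelr3 (0.27, adjusted p = 0.0262) being called higher. Over the 29 alternatives their adjusted p ran from 0.0424 to 0.967 and from 0.0262 to 0.4, and neither passed under any other. The count of 14 called genes was 8 without WT day 7 replicate 3 and 9 without WT day 7 replicate 2 or without WT day 14 replicate 3. In a fit to the compared groups alone, 1 gene rose and 6 fell. Of the 14 calls, 7 held in all 20 refits that left out a library: Sec61a1, Sec62, Ssr1, Rpn2, Ddost, Hsp90b1 and Pdia6.

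In KO tendon the same interval gave 1 call. Sec62 rose by 0.24 ± 0.07 at KO day 14 against KO day 7 (adjusted p = 0.0265), with 155, 145, 160 and 156 CPM at KO day 14, against 129, 130, 128 and 135 CPM at KO day 7, without overlap. Over all genes tested, 7.09% rose and 8.57% fell. The median difference of the 42 was -0.07 on the log2 scale, against 0.00 over all genes. The call was lost when KO day 7 replicate 1, 2 or 3, or KO day 14 replicate 1, 3 or 4 was left out, with a highest adjusted p of 0.0728. Without WT day 14 replicate 1, 2 genes were called, the second being Creb3l2 (0.22, adjusted p = 0.0249; 0.0249 to 0.318 over the 29 alternatives). Without KO day 7 replicate 3 the sole call was Ssr2, which was lower at KO day 14 (-0.28, adjusted p = 0.0475; 0.0475 to 0.271 over the 29 alternatives). Pdia6 and Sec61a1, which fell in WT, differed by -0.30 ± 0.11 (adjusted p = 0.0675) and -0.21 ± 0.08 (adjusted p = 0.0826) in KO, with no overlap between the days for either gene. DESeq2 called Sec61a1 lower (-0.21, adjusted p = 0.044), and over the 29 alternatives its adjusted p ran from 0.044 to 0.228.

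At day 7, KO tendon had lower levels of several chaperones and higher levels of Kdelr1 and the Creb3-like factors. Of the 42 genes, 3 rose and 6 fell at KO day 7 against WT day 7, where 9.39% of all genes tested rose and 5.42% fell. The median difference was -0.12 on the log2 scale, against -0.01 over all genes, and 32 of the 42 differences were below 0. No gene changed as much as 2-fold. The levels did not overlap for 14 genes that were lower in KO and 3 that were higher, a count that was not made over all genes tested. Muscle fibre markers took 0.496% to 1.22% of the counts in KO day 7 libraries and 0.0235% to 0.189% in WT day 7 libraries.

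Folding genes made up 4 of the 6 that fell. Hsp90b1 had 407, 433, 388 and 386 CPM in KO day 7 libraries, against 474, 582, 580 and 484 CPM in WT day 7 libraries, and fell by 0.39 ± 0.11 (adjusted p = 0.0217). Pdia6 had 271, 289, 251 and 241 CPM in KO, against 290, 384, 373 and 302 CPM in WT, and fell by 0.36 ± 0.11 (adjusted p = 0.0328). All KO libraries of both genes lay below all WT libraries, for Pdia6 by a narrow gap. Pdia3 fell by 0.27 ± 0.09 (adjusted p = 0.0475) and Canx by 0.24 ± 0.08 (adjusted p = 0.0449). Hspa5 had 630, 721, 622 and 558 CPM in KO, against 768, 1046, 949 and 820 CPM in WT. Every KO library was below every WT library, and the difference was -0.50 ± 0.18, yet it was not called (adjusted p = 0.0624). The fit shares 1 estimate of the spread over all 20 libraries, and without WT day 14 replicate 4 Hspa5 had the same difference with adjusted p = 0.00272, and Pdia4 (-0.32, adjusted p = 0.0339) and Copb1 (-0.27, adjusted p = 0.0113) were called too. Pdia4 in the full fit differed by -0.32 ± 0.11 (adjusted p = 0.0576). Over the 29 alternatives the adjusted p of Hspa5 ran from 0.00272 to 0.605, that of Pdia4 from 0.0298 to 0.691 and that of Copb1 from 0.0113 to 0.465, and they were called under 5, 5 and 2 of them. Calr and Dnajb11 differed by -0.12 ± 0.11 and -0.04 ± 0.08. Of the 6 carriers of ERSE or ERSE-II letters, all of them folding genes, 3 fell, and none of the 4 carriers of the UPRE core was called. Of the 27 genes whose window held none of these letters, 2 rose and 3 fell. Of the 5 genes without a window, 1 rose and 0 fell.

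Outside the folding role, Ssr3 and Copa fell. Ssr3 had 537, 536, 485 and 519 CPM in KO day 7 libraries, against 646, 656, 603 and 607 CPM in WT day 7 libraries, and fell by 0.27 ± 0.09 (adjusted p = 0.0426). Copa had 476, 513, 501 and 471 CPM in KO, against 597, 592, 570 and 544 CPM in WT, and fell by 0.23 ± 0.07 (adjusted p = 0.0330). Neither gene's groups overlapped. Sec61a1 differed by -0.12 ± 0.08 and Sec61b by -0.19 ± 0.09. Among the 42, no COPII gene, cargo receptor or oligosaccharyltransferase gene was called.

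Kdelr1 had 198, 195, 182 and 189 CPM in KO day 7 libraries, against 142, 151, 158 and 154 CPM in WT day 7 libraries, and rose by 0.34 ± 0.08 (adjusted p = 0.00977). Kdelr2 and Kdelr3 differed by -0.17 ± 0.09 (adjusted p = 0.238) and -0.08 ± 0.10 (adjusted p = 0.615). Per kb of exon, Kdelr2 stood at 1.54 times Kdelr1 in KO day 7 and at 2.19 times in WT day 7, and Kdelr3 at 1.28 times in KO and 1.71 times in WT. Creb3l1 had 113, 163, 130 and 130 CPM in KO, against 73.8, 91.9, 112 and 111 CPM in WT, and rose by 0.47 ± 0.13 (adjusted p = 0.0238). Creb3l2 had 159, 164, 150 and 168 CPM in KO, against 125, 136, 121 and 130 CPM in WT, and rose by 0.32 ± 0.10 (adjusted p = 0.0337). For these 3 genes every KO library was above every WT library, for Creb3l1 by a narrow gap. Xbp1 differed by -0.19 ± 0.11 (adjusted p = 0.257).

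**Figure D3:**
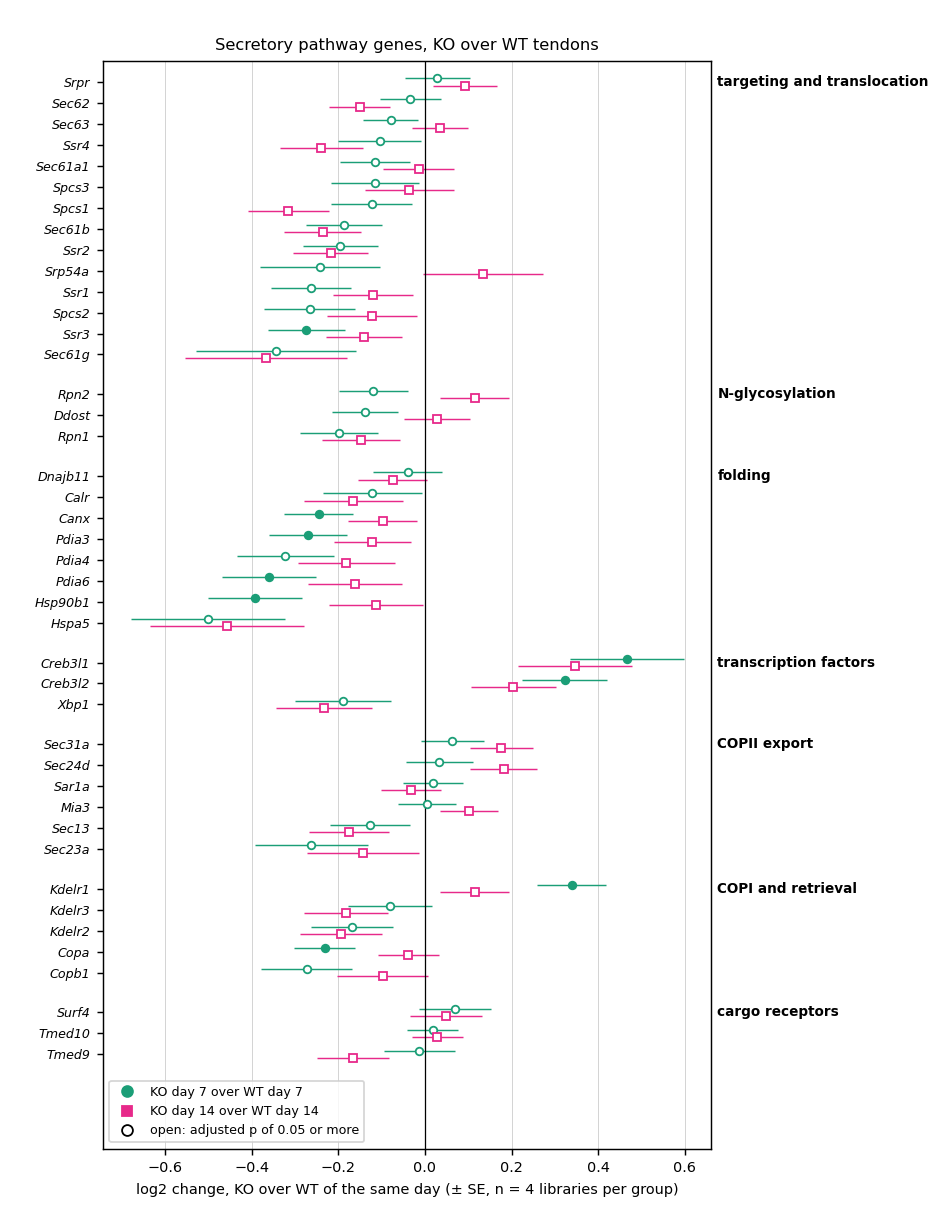
Log2 changes of the 42 genes (x axis) in KO over WT at day 7 (circles) and day 14 (squares), by gene and role (y axis), with bars for the SE of 4 libraries per group; open symbols did not pass the test. Filled circles mark 6 genes left of 0 and 3 right of it at day 7, and every square of day 14 is open.

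The KO day 7 calls were sensitive to single libraries. The 9 calls became 2 without WT day 7 replicate 2, WT day 7 replicate 3 or KO day 7 replicate 4, 3 without KO day 7 replicate 2 or 3, and 5 without WT day 0 replicate 1 or WT day 7 replicate 1 or 4. They became 12 without WT day 14 replicate 4. Kdelr1 was the 1 gene called in all 20 of these refits, with a highest adjusted p of 0.0251. Creb3l1 lost its call in 3 refits, Hsp90b1 in 4, Pdia6 and Creb3l2 in 5 each, Copa in 8, Pdia3 and Canx in 16 each and Ssr3 in 17. With the muscle fibre markers as a covariate, the sole call was Kdelr1 (0.41, adjusted p = 0.0319). Over all 29 alternatives the adjusted p of Kdelr1 ran from 0.000733 to 0.0319.

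At day 14, none of the 42 genes was called between KO and WT by edgeR, DESeq2 or limma-voom. Over all genes tested, 1.06% rose and 0.719% fell at KO day 14 against WT day 14 with edgeR. At an unadjusted p below 0.05, 10 of the 42 passed with edgeR and 10 with each of the other tools. Of the 18918 genes tested, 3154 passed that threshold with edgeR, 3237 with DESeq2 and 2947 with limma-voom. The median difference was -0.12 on the log2 scale, against -0.01 over all genes. Hspa5 had 501, 580, 591 and 571 CPM in KO day 14 libraries, against 920, 886, 869 and 405 CPM in WT day 14 libraries, a difference of -0.46 ± 0.18 (adjusted p = 0.197). All 4 KO libraries lay between WT day 14 replicate 4 and its 3 mates. Creb3l1 had 128, 147, 133 and 126 CPM in KO, against 85.4, 103, 117 and 114 CPM in WT, which did not overlap, and differed by 0.35 ± 0.13 (adjusted p = 0.186). Sec31a had 407, 428, 423 and 412 CPM in KO, against 330, 382, 405 and 362 CPM in WT, also without overlap, and differed by 0.18 ± 0.07 (adjusted p = 0.223). Creb3l2 differed by 0.20 ± 0.10 and Kdelr1 by 0.11 ± 0.08 (adjusted p = 0.304 and 0.506). Per kb of exon, Kdelr2 stood at 1.54 times Kdelr1 in KO day 14 and 1.91 times in WT day 14. Without WT day 14 replicate 4, 6 genes were called lower in KO, against 3 remaining WT libraries: Hspa5 (-0.67, adjusted p = 0.00155), Xbp1 (-0.37, adjusted p = 0.00927), Spcs1 (-0.38, adjusted p = 0.0169), Ssr4 (-0.31, adjusted p = 0.0421), Sec13 (-0.27, adjusted p = 0.0431) and Kdelr2 (-0.28, adjusted p = 0.0483). Without KO day 14 replicate 4, Spcs1 alone was called (-0.38, adjusted p = 0.0431). The other 5 genes passed under no further alternative, and the adjusted p of Hspa5 ran from 0.00155 to 0.503 over the 29.

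The KO effect at day 14 minus the KO effect at day 7, the interaction of genotype and day, was called for none of the 42 genes and for 0% of all genes tested. With edgeR, 0 of the 42 and 2039 of all genes had an unadjusted p below 0.05. DESeq2 gave 2 of the 42 at an unadjusted p below 0.05, 0 after adjustment and 190 of all genes after adjustment, and limma-voom gave 1, 0 and 0. The KO differences at day 7 are therefore not shown to differ from those at day 14.

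Other genes of the same pathway, from lists chosen with earlier results known, moved beside these 42. Of 97 tested genes in 7 lists, 69 rose and 10 fell at WT day 7 against WT day 0, where 32.3% of all genes tested rose and 31.8% fell. At WT day 14 against WT day 0, 61 of the 97 rose and 7 fell, where 28% of all genes rose and 26.2% fell. Of the 18 further folding and redox genes, 16 rose and 1 fell at day 7. The disulfide isomerase Pdia5 rose by 2.58 ± 0.11, P4hb, a disulfide isomerase and subunit of prolyl 4-hydroxylase, by 1.39 ± 0.09, and Txndc5 by 1.27 ± 0.08. Of 16 further COPI and Golgi genes, 15 rose and none fell at day 7, among them Copb2 by 1.30 ± 0.09 and the GTPase Arf4 by 1.11 ± 0.09. Of 8 further N-glycosylation genes 7 rose, led by Ostc at 1.59 ± 0.12. Of 11 further targeting and translocation genes 8 rose, led by Tram1 at 0.85 ± 0.07. Of 14 further cargo receptors 8 rose and 1 fell, and the export receptor Lman1 rose by 1.44 ± 0.10 and Tmed3 by 1.13 ± 0.07.

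The lists were not uniform. Of 12 further COPII genes, 6 rose and 4 fell at WT day 7 against WT day 0: Sec31b fell by 2.47 ± 0.22 and Sar1b by 1.73 ± 0.18, while Sec16a, a scaffold of exit sites, rose by 0.52 ± 0.07. Sec31a and Sar1a, the close relatives among the 42, rose in the same comparison. Of 18 genes of the unfolded protein response and of ER degradation, 9 rose and 4 fell. Edem1, which hands misfolded glycoproteins to degradation, rose by 1.09 ± 0.10 and Creb3 by 0.81 ± 0.10, while Herpud1, a stress-induced membrane protein of the degradation machinery, fell by 0.82 ± 0.10. At WT day 14 against WT day 7, 13 of the 97 rose and 18 fell, where 16% of all genes tested rose and 14.3% fell. In that comparison Herpud1 rose by 0.79 ± 0.10 while Edem1 fell by 0.53 ± 0.10.

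Between KO and WT, 3 of the 97 rose and 7 fell at day 7, where 9.39% of all genes tested rose and 5.42% fell. At day 14 none of the 97 rose and 1 fell, where 1.06% of all genes rose and 0.719% fell. The cargo receptor Tmed2 fell by 0.73 ± 0.13 at day 7 (adjusted p = 0.00109) and by 0.80 ± 0.13 at day 14 (adjusted p = 0.00154). Tmed5 fell by 0.58 ± 0.13 at day 7 (adjusted p = 0.00688) and differed by -0.35 ± 0.13 at day 14 (adjusted p = 0.177). The signal peptidase subunit Sec11c fell by 0.41 ± 0.08 at day 7 (adjusted p = 0.0038), and Sec31b rose by 0.69 ± 0.22 (adjusted p = 0.0382).

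Secreted matrix genes and markers of other cells moved with these comparisons. All 12 matrix genes of the list, which include Col1a1, Col1a2 and Col3a1 and overlap the tenocyte list in Col1a1 and Col1a2, rose at WT day 7 and at WT day 14 against WT day 0, with median differences of 1.64 and 2.29. Their summed level was 43445 ± 2954 CPM at WT day 0, 121599 ± 6604 CPM at WT day 7 and 183074 ± 41657 CPM at WT day 14 (SD, n = 4 each). Between WT day 14 and WT day 7, 7 of the 12 rose and 1 fell. Against WT day 7, 7 of the 12 rose and none fell at KO day 7, with sums of 174695 to 200710 CPM in KO and 114748 to 130275 CPM in WT. At day 14, 1 of the 12, Col5a1, rose in KO (0.73 ± 0.18, adjusted p = 0.0434). The summed level of the 42 secretory genes was 10363 to 11362 CPM in KO day 7 libraries and 11479 to 13016 CPM in WT day 7 libraries, and that of the 8 folding genes was 3030 to 3540 CPM in KO and 3626 to 4542 CPM in WT.

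All 12 macrophage markers rose at WT day 7 and 9 at WT day 14 against WT day 0, and their summed level was 2112 to 2436 CPM at WT day 0, 4834 to 8390 CPM at WT day 7 and 3839 to 4454 CPM at WT day 14. At KO day 7 against WT day 7, 1 of the 12 fell, with sums of 5046 to 6837 CPM in KO and 4834 to 8390 CPM in WT. Of 16 muscle fibre markers, 15 fell and 1 rose at WT day 7 against WT day 0, and 14 rose at KO day 7 against WT day 7. Of 10 tenocyte markers, 2 rose and 4 fell at WT day 7 against WT day 0, and 5 rose at KO day 7 against WT day 7. The tenocyte list includes Scx, the gene named in the ScxCreERT2 allele that the KO groups carry and the WT groups lack. The summed plasma and B cell markers, which mark cells rich in this machinery, were 16.1 to 35.0 CPM at KO day 7, 15.8 to 30.7 CPM at WT day 7 and 104 to 172 CPM at WT day 0. No marker of the macrophage, muscle fibre or tenocyte list was at 0 in any library, and 1 of the 10 plasma and B cell markers was at 0 in WT day 14 replicate 2 and in KO day 14 replicate 3. The part of these cells in the differences of the 42 genes was not tested beyond the fits with the muscle markers as a covariate.

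**Figure D4:**
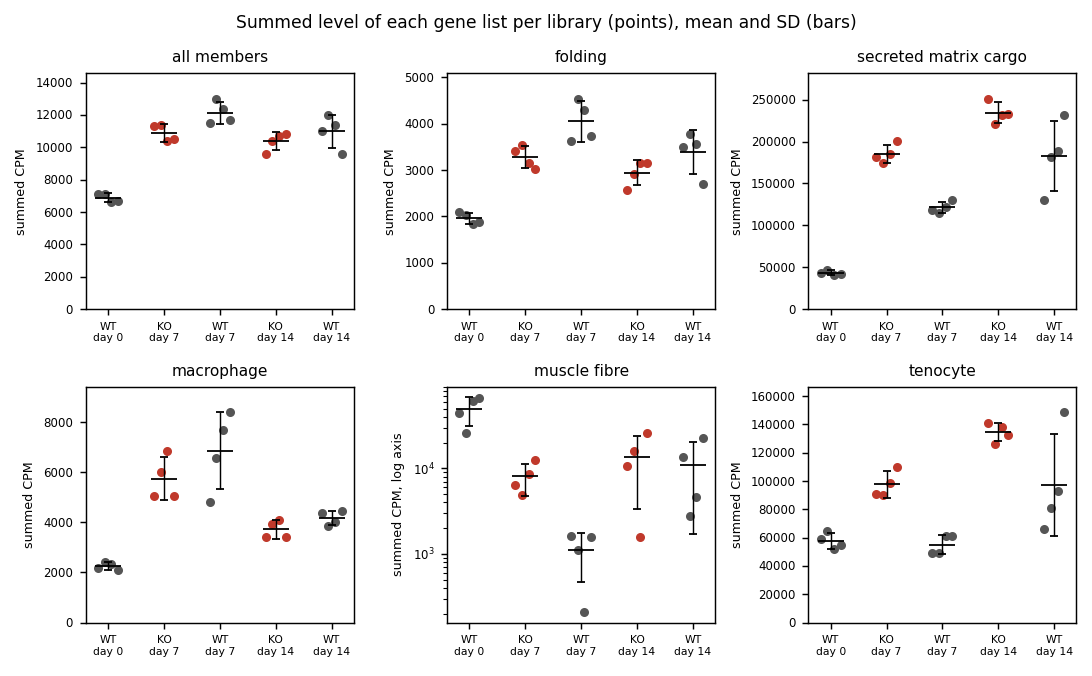
Summed CPM (y axis; log axis for muscle fibre) of 6 gene lists in every library (points), by group (x axis), with the mean and SD of 4 libraries as bars; "all members" are the 42 secretory genes and "folding" 8 of them. The matrix sum is higher in all KO day 7 libraries than in all WT day 7 libraries, while the folding sum is lower in all KO day 7 libraries.

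The authors' deposited table of comparisons covers 13266 genes and all of the 42. At its false discovery rate below 0.05, the authors' deposited table calls 34 of the 42 higher and 0 lower at WT day 7 and at WT day 14 against WT day 0. In the authors' deposited table, 3 are higher and 9 lower at KO day 7 against WT day 7, and 0 are called at KO day 14 against WT day 14. Of all 13266 genes in the authors' deposited table, 4873 are higher and 4768 lower at WT day 7 against WT day 0. The authors' deposited table has 4360 higher and 4065 lower at WT day 14 against WT day 0. Between KO and WT, the authors' deposited table has 1732 higher and 1146 lower at day 7, and 190 and 116 at day 14. The log2 fold changes of the 42 genes in the authors' deposited table differ from those computed here by at most 0.019.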

How the data were processed

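The authors deposited raw counts per gene for 20 libraries of mouse plantaris tendon, and a table of their own edgeR comparisons with log2 fold changes, p-values and false discovery rates, per the file headers. FastQC, STAR, edgeR and build mm10 are named in the submitters' processing notes. The sources used here give no version, counting tool, gene annotation or strand setting. Without the last of these, reads of a gene and of an overlapping gene on the other strand cannot be told apart, and reads shared by close copies may be lost or split.

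The counts were analysed with edgeR 4.0.16 in R 4.3.3. Genes were kept by filterByExpr, TMM factors scaled the libraries, and a robust quasi-likelihood model of 5 group means used all 20 libraries. P-values were adjusted over all 18918 genes tested, and the SE is the log2 change divided by the square root of F. Sample titles gave the groups and replicate numbers. The numbers were not taken to pair the libraries, since no label says so. Between libraries of different groups, 14 of 40 correlations were over 0.1 for the same number (median 0.0474). For different numbers 19 of 120 were over 0.1 (median -0.00903). Whether libraries of the same number were handled together was not tested. No duplicate library was found within a group (smallest chi-square per degree of freedom 15.4). Libraries of different groups were not compared in this way. The 42 genes, their roles and all lists were chosen with earlier results of these data known. Values in every library are given for 20 genes of the naming rule and for further members that a comparison turned on; of the other lists, up to 3 genes with the smallest p per comparison could be named. Scripts were tested on simulated data. CPM per kb used exon lengths from the GENCODE annotation of GRCm38, which also gave coordinates, and promoter windows came from RefSeq, build GRCm38.p6.

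The alternatives tried were 2 other scalings (RLE, upper quartile), no filter or a filter of 1 CPM in 4 or more libraries, DESeq2 1.42.0 and limma-voom (limma 3.58.1) as tests, a fit to the compared groups alone, a block for the replicate number, a covariate for muscle markers, and omission of single libraries. Depth of 32.3 to 63.5 M counts sets the counting error, which covers neither animals nor library preparation.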

Additional observations from a re-analysis of the deposited data

Results flagged for a closer look

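Of 210 sets of 4 libraries (42 genes in 5 groups), 9 held a library far from its 3 mates by Dixon's test at the 95% level, where chance flags about 1 in 20. Hspa5 was 405 CPM in WT day 14 replicate 4, against 869 to 920 CPM in the other 3. Creb3l2 was 119 CPM in WT day 14 replicate 1, against 173 to 181 CPM, and 137 CPM in WT day 0 replicate 2, against 126 to 128 CPM. In KO day 14 replicate 1, Sec61a1 was low at 306 CPM, against 338 to 343 CPM, and Spcs3 at 95.9 CPM, against 110 to 113 CPM. In KO day 14 replicate 3, Sec63 was high at 149 CPM, against 138 to 139 CPM, and Tmed10 at 179 CPM, against 163 to 165 CPM. In KO day 14 replicate 4, Sec61g was high at 4.11 CPM, against 2.76 to 2.93 CPM, and Kdelr3 at 210 CPM, against 188 to 190 CPM. Their causes were not tested.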

How the results depend on the processing

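No called difference of the 42 genes changed its sign under any alternative that was run. The number of the 42 called against WT day 0 stayed within 1.5 times of 34 under every alternative (31 to 36 at day 7 and 32 to 36 at day 14 when each library was left out, and 24 and 31 with the muscle covariate). At WT day 14 against WT day 7, the 14 calls (3 higher, 11 lower) became 7 in a fit to the compared groups alone (1 higher, 6 lower) and 2 with the muscle covariate (2 higher, 0 lower), and 8 to 15 when each library was left out. At KO day 7 against WT day 7, the 9 calls became 5 with no filter on low counts and 1 with the muscle covariate, and 2 to 12 when each library was left out. At KO day 14 against WT day 14 the leave-one-out counts ran from 0 to 6, at KO day 14 against KO day 7 from 0 to 2, and for the interaction they were 0 throughout. DESeq2 gave 2 calls at KO day 14 against KO day 7, Sec62 higher and Sec61a1 lower. Over all genes tested, the muscle covariate left 6043 of 12133 calls at WT day 7 against WT day 0, 2922 of 5745 at WT day 14 against WT day 7 and 942 of 2802 at KO day 7 against WT day 7. DESeq2 gave 759 and the compared groups alone 86 at KO day 14 against WT day 14, where edgeR gave 337, and DESeq2 gave 190 for the interaction, where edgeR gave 0. Leaving out each library moved the all-gene counts to 11411 to 12558, 9207 to 10594, 4521 to 5912, 1440 to 3509, 152 to 1672 and 1693 to 3361 for the WT comparisons of day 7 with day 0, day 14 with day 0 and day 14 with day 7, the KO with WT comparisons of day 7 and day 14, and KO day 14 with KO day 7, in this order, and to 0 to 11 for the interaction. The highest values at KO against WT came without WT day 14 replicate 4. Hspa5 at KO day 7 against WT day 7 passed under upper-quartile factors (adjusted p = 0.0490), DESeq2 (0.0348) and the compared groups alone (0.0161). With the replicate number as a block, 35, 34, 14, 10, 0 and 1 of the 42 were called in the same order of comparisons and 0 for the interaction; Creb3l1 was then called lower at WT day 7 against WT day 0 (-0.25, adjusted p = 0.0347) and Hspa5 at KO day 7 against WT day 7 (-0.50, adjusted p = 0.0469). No label says that the numbers pair libraries, and 7 of 20 libraries correlated best with one of their own number. The causes of these shifts were not tested. Depth limits Srp54a and Sec61g most, the genes with the fewest counts, and a muscle score that differs between groups cannot be separated from group by a covariate.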

Other observations

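In the authors' deposited table, the column headed as KO day 14 against WT day 7 equals the KO effect at day 14 minus the KO effect at day 7 for every gene, with a largest gap of 2e-09 on the log2 scale. It therefore holds the interaction of genotype and day, and the lowest false discovery rate of the 42 genes in that column of the authors' deposited table is 0.355.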
